A study of Mus musculus with 12 samples.

Results

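Bcl11a, Zbtb16, Cox6a2, Dus2, Tmem114 and Cd244a were each high on 6 of the 12 arrays and low on the other 6, with 3 co-culture arrays and 3 control arrays on either side. These 6 genes, of 18193 genes named by a single symbol on the array, were selected on these same values: each had a probe set whose signal, taken as log2(signal + 16), left a gap of over 1.5 between the 6th and the 7th array in rank order, and none was counted with another gene family. The split itself is therefore a description and was given no test. The 6 genes were read by 17 of the 45037 probe sets, where a probe set is a group of short oligonucleotides that together report a transcript. Bcl11a, Tmem114, Cox6a2, Dus2 and Zbtb16 were high on co-cultures 2, 3 and 5 and on controls 1, 3 and 5, and Cd244a was high on the other 6 arrays. The sample labels name no culture source, preparation or mouse that sets these arrays apart, so they are called here by their numbers.

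The arrays measured total RNA, after 6 days, of cultures that the paper names as bone marrow mesenchymal stem/stromal cells (MSCs). Of these, 6 were cultured with hematopoietic stem cells (HSCs, co-culture or treated) and 6 without (MSC-only, control). Wells received 3000 MSCs each, to which 7000 HSCs were added for co-culture and 0 for the controls. MSCs were taken as PDGFR-α+ Sca-1+ cells lacking CD31, CD45 and TER119, and HSCs as Lin- Sca-1+ c-Kit+ cells. The labels give C57BL/6 male mice of 6 weeks for all 12 samples; the paper took the MSCs of its co-cultures from mice carrying EGFP and does not say whether those on the arrays did. Neither source states which samples came from the same mouse or preparation, whether the wells were direct or indirect co-cultures, or how far MSCs were separated from other cells before lysis, so p-values measure only the spread between these samples, which may be technical. In such bulk samples, fewer cells of a type and less RNA per cell cannot be told apart. Signals of 12 stromal genes differed widely, from Col1a2 at 9676.8 to 20612.1 and the sort marker Pdgfra at 406.9 to 1464.4 down to Lepr at 41.4 to 109.4, Thy1 at 7.0 to 123.7 and Nt5e at 4.5 to 57.8. Ptprc (CD45) gave 11519.0 to 12641.8 in the co-cultures and 10424.9 to 13143.5 in the controls, although the MSCs had been sorted without CD45. The summed signal of 13 macrophage and leukocyte genes was 236387.6 to 305554.9 in the co-cultures and 228034.4 to 314299.8 in the controls. That of the 12 stromal genes was 28959.9 to 41677.3 and 30342.6 to 46216.5. The mix of cells in the cultures was not tested. The median signal of all probe sets was 74.8 to 89.0 per array.

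Some libraries went against their labels, which give male for all samples. On the 4 arrays numbered 3 and 4, in both groups, Xist, the RNA that coats an inactive X chromosome, gave 16809.6 to 21977.5. The Y-linked genes Eif2s3y, Kdm5d and Uty gave 17.1 at most there by the brightest probe set of each. Their other probe sets gave 32.5 at most on these arrays. The other 4 co-cultures showed both Xist and Eif2s3y, so their Xist also went against the label. The other 4 controls showed Eif2s3y with little Xist. The gaps and the group differences are given with and without the 4 arrays numbered 3 and 4, which keeps the other co-cultures with Xist in.

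The 6 genes have different roles and no shared pathway was used to choose them. Bcl11a and Zbtb16 (PLZF) are zinc-finger repressors that act in blood cells: Bcl11a silences fetal globin genes and is needed for B cells, and Zbtb16 directs innate-like T cells and is also induced by glucocorticoids in many tissues. Cox6a2 is the heart and skeletal muscle form of a cytochrome c oxidase subunit, and Dus2 makes dihydrouridine in transfer RNA. Tmem114 is a claudin-like membrane protein, and Cd244a (2B4) is a receptor of the SLAM family that binds CD48 on natural killer and myeloid cells.

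Sequence around the start of transcription was looked up for the 6 genes, since 5 of them were high on the same arrays and 1 on the opposite arrays. The RefSeq promoter table of GRCm38.p6 held 4 of them, each with 250 bases before the start and 50 after, and Cox6a2 and Zbtb16 had no entry. The 2 same-direction genes with the widest gaps and the opposite gene are shown 5′ to 3′, and capitals mark motif matches found on either strand. Bcl11a lies at chr11:24080445-24080744 on the plus strand, Tmem114 at chr16:8425087-8425386 on the minus strand and Cd244a at chr1:171558943-171559242 on the plus strand.
Bcl11a: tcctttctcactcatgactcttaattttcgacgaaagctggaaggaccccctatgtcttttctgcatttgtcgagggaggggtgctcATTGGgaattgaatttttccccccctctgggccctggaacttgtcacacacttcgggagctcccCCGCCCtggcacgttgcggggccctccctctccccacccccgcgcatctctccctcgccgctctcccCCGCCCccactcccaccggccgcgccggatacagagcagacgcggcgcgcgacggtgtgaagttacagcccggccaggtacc
Tmem114: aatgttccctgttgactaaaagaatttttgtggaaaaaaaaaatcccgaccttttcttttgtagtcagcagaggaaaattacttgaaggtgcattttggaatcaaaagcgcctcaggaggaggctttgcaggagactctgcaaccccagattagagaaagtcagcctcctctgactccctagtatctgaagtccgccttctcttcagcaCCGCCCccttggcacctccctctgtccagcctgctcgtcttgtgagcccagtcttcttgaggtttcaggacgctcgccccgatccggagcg
Cd244a: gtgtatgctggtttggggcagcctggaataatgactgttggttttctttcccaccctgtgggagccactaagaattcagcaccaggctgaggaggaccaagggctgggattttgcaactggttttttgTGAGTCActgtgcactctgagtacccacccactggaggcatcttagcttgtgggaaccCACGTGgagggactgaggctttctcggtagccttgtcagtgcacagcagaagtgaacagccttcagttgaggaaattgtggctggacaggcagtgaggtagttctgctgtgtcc
The motifs searched were the GC box (GGGCGG), the CCAAT box (CCAAT), the TATA box (TATAAA), an E-box (CACGTG), the AP-1 site (TGANTCA) and the CRE (TGACGTCA). The Bcl11a promoter held 2 GC boxes and 1 CCAAT box and the Tmem114 promoter held 1 GC box, all on the opposite strand. GC boxes were present in 35.7% and CCAAT boxes in 37.4% of the 32851 promoters in the table. The Cd244a promoter held none of these but 1 E-box, found in 7.15% of promoters, and 1 AP-1 site, found in 7.81%. Dus2, at chr8:106011228-106011527 on the plus strand, held 1 CRE, a motif of 1.79% of promoters. No motif was therefore present in all 3 of the same-direction promoters that could be read. GC content was 63.0% for Bcl11a, 50.3% for Tmem114, 53.0% for Cd244a and 65.3% for Dus2, against a median of 52.7% over the table.

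Among the repressors, Bcl11a had the widest gap of the 6 genes. Its brightest probe set (1457072_at) gave signals of 19.7, 427.8, 204.0, 1.8, 352.1 and 12.5 on co-cultures 1 to 6 and 354.2, 6.5, 452.7, 7.4, 248.8 and 8.0 on controls 1 to 6. The 6 high arrays reached at least 204.0, none of the low arrays exceeded 19.7, and the gap was 2.62. The break was there within each group: 2.62 between the 3rd and the 4th co-culture and 3.46 between the 3rd and the 4th control. Zbtb16 (1419874_x_at) read 75.1, 473.7, 428.6, 53.5, 334.3 and 61.4 on the co-cultures and 370.7, 75.1, 346.5, 62.3, 244.3 and 67.4 on the controls. Zbtb16 lay between 53.5 and 75.1 on its low arrays and between 244.3 and 473.7 on its high ones, and its gap of 1.51 was the narrowest of the 6. Its break was 1.94 within the co-cultures and 1.51 within the controls.

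**Figure D1:**
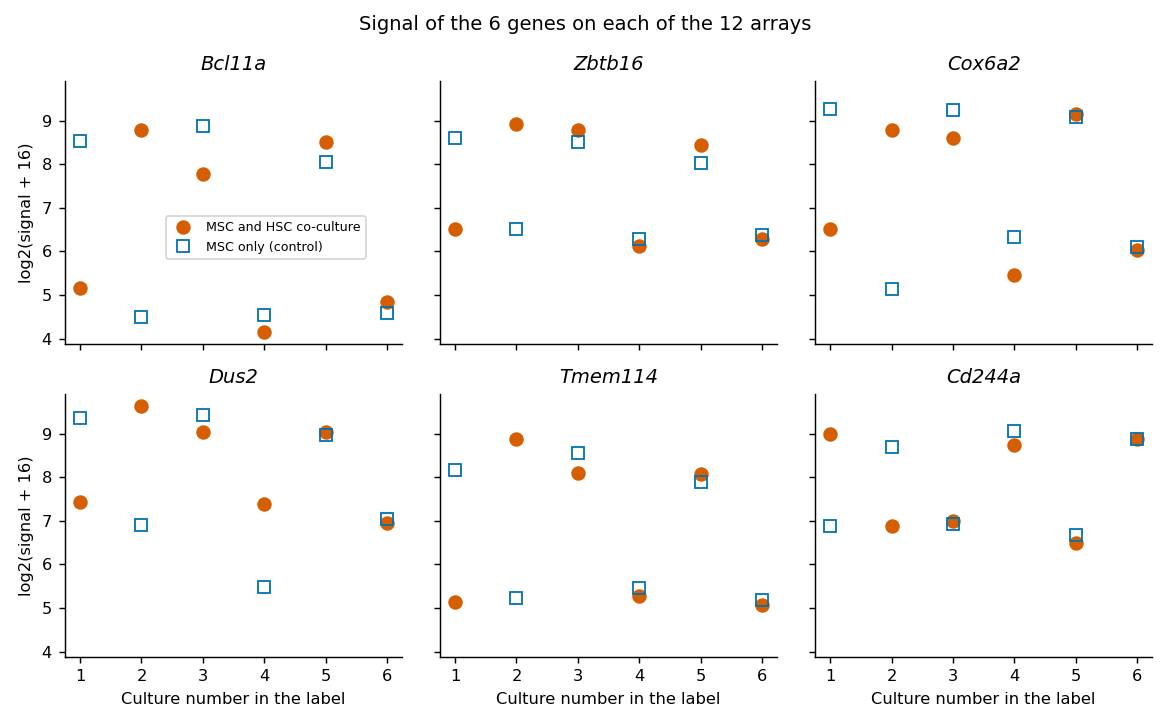
Log2(signal + 16) of each of the 6 genes, by its probe set with the widest gap, against the culture number in the label, with filled circles for co-cultures and open squares for controls. Co-cultures 2, 3 and 5 and controls 1, 3 and 5 lie above the other arrays for all genes but Cd244a, which lies below on them.

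The enzyme genes Cox6a2 and Dus2 were high on the same arrays as the repressors. Cox6a2 (1417607_at) gave 277.5, 1259.8, 1108.5, 203.6, 1520.8 and 341.7 on co-cultures 1 to 6 and 1688.0, 167.6, 1603.2, 250.6, 1115.3 and 275.8 on controls 1 to 6. No low array was above 341.7 and no high array below 1108.5, a gap of 1.65. A second Cox6a2 probe set (1457633_x_at) had a wider gap, 2.07, with 370.6 to 598.8 on the high arrays and 19.0 to 75.9 on the low ones. Dus2 (1447751_x_at) read 157.7, 780.9, 511.0, 150.7, 512.4 and 107.5 on the co-cultures and 646.5, 104.2, 669.7, 29.0, 485.5 and 116.6 on the controls. Control 4, at 29.0, was well below the other low arrays, and the gap was 1.53. The other Dus2 probe set (1452687_at) did not divide the arrays in this way. Its signal was 174.7 to 299.9 on the arrays where the first was high and 88.8 to 239.0 on the rest, with a gap of 0.04.

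The membrane protein genes ran in opposite directions. Tmem114 (1425887_at, its only probe set) gave 19.1, 455.0, 256.3, 22.5, 255.5 and 17.6 on the co-cultures and 272.3, 21.6, 358.9, 28.3, 222.9 and 20.2 on the controls. Its 6 low arrays lay close together, between 17.6 and 28.3, and the gap was 2.43. Cd244a (1449991_at) read 495.4, 101.9, 111.4, 413.4, 74.1 and 458.7 on the co-cultures and 102.1, 396.7, 104.9, 520.8, 86.4 and 454.5 on the controls. Cd244a was thus high, at 396.7 or more, on every array where the other 5 genes were low, and at 111.4 or less on the rest, a gap of 1.70. Its second probe set (1426120_a_at) showed the same order of the sets, at 230.1 to 328.4 against 52.9 to 99.2.

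Of the 17 probe sets, 7 passed the gap of 1.5, which 30 of all 45037 (0.0666%) passed; the 6 genes were selected on this measure, so nothing is read from the difference. Just inside the threshold were Zbtb16 at 1.51, Cp at 1.52 and Dus2 at 1.53, and just outside it were Gsta3 at 1.46 and Ddit3 at 1.41. After quantile normalization or median centring of the arrays, Dus2 (1.48 under both) and Zbtb16 (1.46 under both) fell below the threshold. All 30 probe sets divided the same arrays in the same way, 26 of them high on co-cultures 2, 3 and 5 and controls 1, 3 and 5, and 4 high on the others. Without the arrays numbered 3 and 4, the gap was 2.89 for Bcl11a, 2.67 for Tmem114, 2.28 for Cox6a2 (1457633_x_at), 1.80 for Cd244a, 1.53 for Dus2 and 1.51 for Zbtb16. Leaving these arrays out could only keep or widen a gap, since they were taken from both sides in equal number. Array 3 of each group was on the high side and array 4 on the low side, so the arrays with Xist and little Y-linked signal were on both sides of the split.

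The other probe sets of these genes told partly the same. The 7 past the gap parted 6 arrays from 6 by the rule itself, which did not set which arrays were high. Of the 10 not past it, 5 placed the same 6 arrays wholly above or wholly below the rest, 4 in the direction of Bcl11a and 1 in that of Cd244a. Over the whole array 3.59% of probe sets did so in the first direction and 3.00% in the second, but these 10 read the genes that were selected on the split, so nothing is read from the difference. The Bcl11a probe set 1419406_a_at, at 72.6 to 97.5 against 2.7 to 34.9, and 1456632_at, at 44.5 to 103.5 against 2.4 to 28.0, kept the order at lower signal, and 1426552_a_at kept it narrowly with a gap of 0.12. The remaining 3 Bcl11a probe sets did not, with signals of 64.4 at most. For Zbtb16, 1427638_at separated the arrays, with a gap of 1.07 and 186.7 to 250.6 against 9.4 to 80.7, while 1439163_at ran from 65.3 to 159.0 with no break. The probe sets past the threshold for Dus2 and Zbtb16 and 1 of those for Cox6a2 carry the suffix _x_at, which marks probes that can also match other transcripts, and for Dus2 and Zbtb16 at least 1 other probe set did not show the split. Whether those signals belong to the named gene was not tested.

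**Figure D2:**
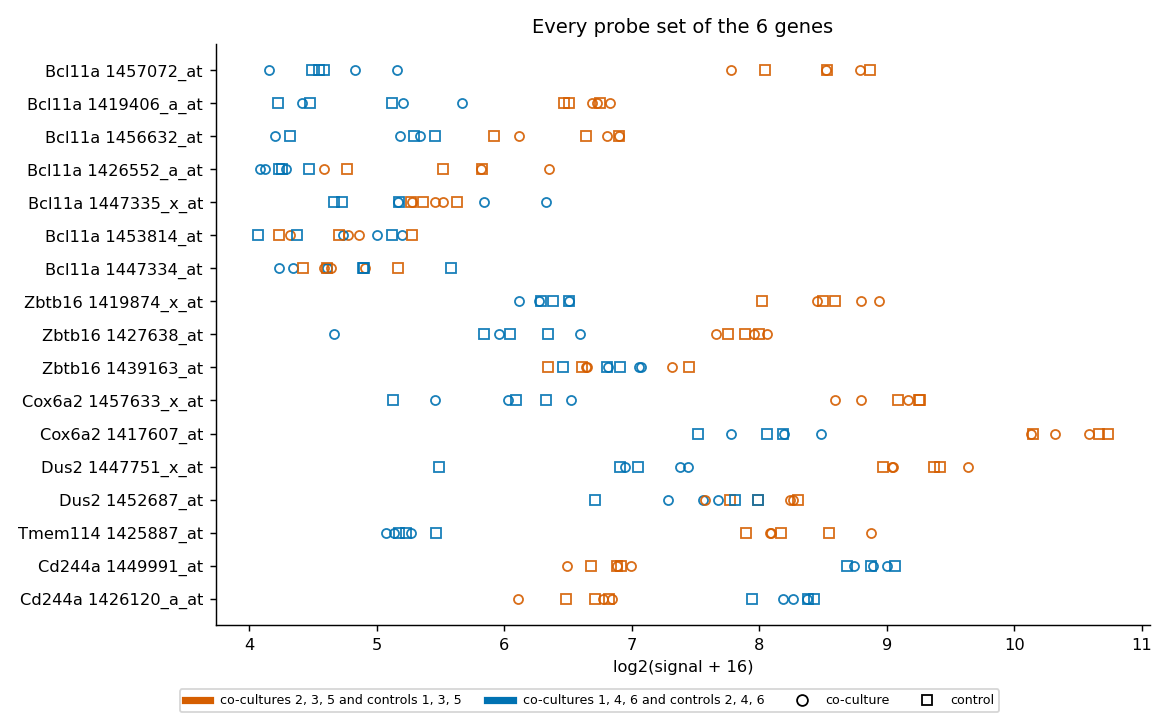
Log2(signal + 16) of all 17 probe sets, with one row per probe set and one point per array; circles are co-cultures, squares are controls and colours give the 6 arrays on which Bcl11a was high and the other 6. The colours part without overlap in 12 rows and mix in 5, among them Dus2 1452687_at and Zbtb16 1439163_at.

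The study compared co-culture with control, and the values of the 6 genes in these groups are given as a description. The rule for their selection took a wide gap and did not use the groups. With 3 arrays of each group on either side, that gap gave both groups a large spread and left their means close. The comparison therefore says nothing of whether HSCs changed these genes. Limma called 0 of the 17 probe sets (Benjamini-Hochberg adjusted p of 1 for all 17), and 0 at an unadjusted p of 0.05. Over the whole array 2 probe sets passed (0.00444%), for Alox8 and Taf7l. Bcl11a averaged 6.54 ± 2.05 (SD, n = 6) on the log2(signal + 16) scale in the treated group and 6.51 ± 2.18 (SD, n = 6) in the control group. The difference was 0.03 with a standard error of 1.09 and a 95% interval of -2.34 to 2.40. Tmem114 differed by 0.0037, with an interval of -1.90 to 1.91, Cox6a2 by 0.03 (-1.48 to 1.54) and Zbtb16 by 0.13 (-1.25 to 1.51). Cd244a was the only one with a lower mean in co-culture, by -0.02 (-1.31 to 1.27). Dus2 had the largest difference of the 6 brightest probe sets, 0.38 (-1.19 to 1.95). Over all 17 probe sets, 12 had the higher mean in co-culture and 5 the lower, with a median difference of 0.03, against 24631 and 20406 of all probe sets and a median of 0.02.

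The 2 probe sets with the smallest p were both of Bcl11a and both dim. Bcl11a 1447335_x_at gave 20.0 to 64.4 in co-culture and 9.4 to 33.4 in control (difference 0.46; exact two-sided permutation p = 0.0844 over 924 arrangements), and 1447334_at went the other way (difference -0.37; exact two-sided permutation p = 0.0736). Neither separated the 6 arrays or passed the gap. Without the arrays numbered 3 and 4 the differences were 0.41 for Bcl11a, 0.25 for Cox6a2, 0.19 for Dus2, 0.17 for Tmem114, 0.17 for Zbtb16 and 0.03 for Cd244a, which changed its sign, and limma called 0 of the 17 probe sets (lowest adjusted p 0.9745 among the 6) and 8 on the whole array. On the arrays kept there, Xist was 13135.8 to 16604.0 in co-culture and 60.5 to 117.6 in control. Culture and sex of the RNA therefore cannot be told apart in that comparison. With single arrays left out, each of the 6 differences took both signs, and under other scalings of the arrays those of Bcl11a, Tmem114 and Cox6a2 also changed sign.

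**Figure D3:**
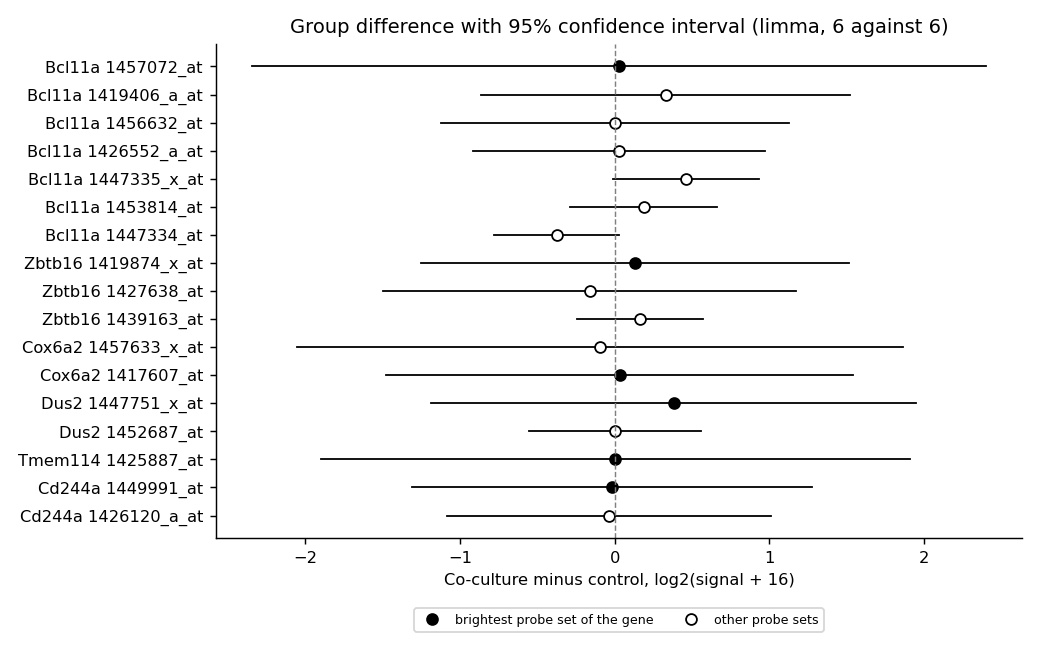
Difference between co-culture and control in mean log2(signal + 16) for the 17 probe sets, with bars for the 95% interval from limma and n = 6 arrays a group. Every interval includes 0, the selection by the gap having made those of the selected probe sets wide, and the widest runs from -2.34 to 2.40, for the brightest Bcl11a probe set.

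The order of the 6 genes was set beside that of the sex-linked genes. Xist was 13135.8 to 16604.0 on co-cultures 1, 2, 5 and 6 and 60.5 to 117.6 on controls 1, 2, 5 and 6, and Eif2s3y, a Y-linked translation factor, was 1021.6 to 1330.9 and 2603.8 to 2844.8 on these. Bcl11a was high on co-cultures 2 and 5 and low on 1 and 6, all 4 of which had both transcripts, and high on controls 1 and 5 and low on 2 and 6, all 4 of which had Eif2s3y with little Xist. None of the sex-linked genes separated the 6 arrays on which Bcl11a was high from the rest.

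**Figure D4:**
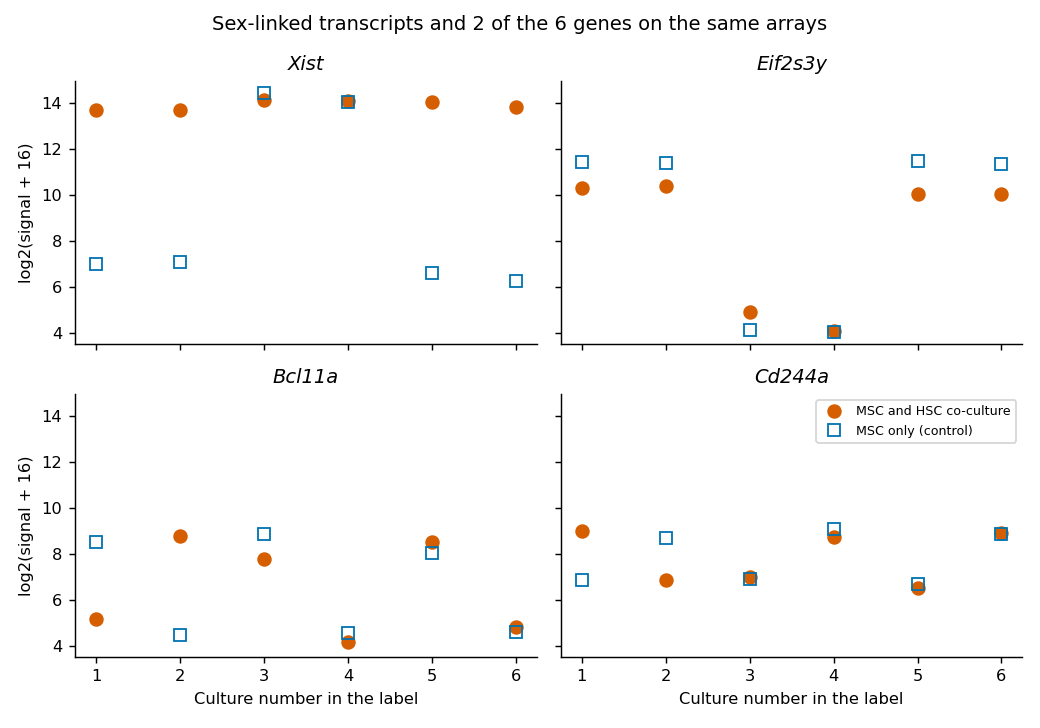
Log2(signal + 16) of Xist, Eif2s3y, Bcl11a and Cd244a against the culture number in the label, with filled circles for co-cultures and open squares for controls. Xist is low only on controls 1, 2, 5 and 6 and Eif2s3y only on the arrays numbered 3 and 4, while Bcl11a and Cd244a each have 3 high and 3 low arrays in either group.

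The named genes most like Bcl11a and its companions were ranked by the distance, in log2(signal + 16) over the 12 arrays, between the lowest of the same 6 arrays and the highest of the rest. Rpl27a, a ribosomal protein gene, came first at 3.15 (321.1 to 761.0 on the high arrays of Bcl11a, 5.6 to 21.9 on the others), followed by Acp1, a phosphatase, at 3.01. Bmp2, a bone morphogenetic protein, had 2.04 (2275.4 to 4053.3 against 108.3 to 541.7), Crabp2, which binds retinoic acid, 2.03, and H2-Ab1, an MHC class II chain, 1.91. For Acp1 this held in 1 of 6 probe sets and for H2-Ab1 in 1 of 3. Like Cd244a, in the opposite direction, were Mmp8, a neutrophil collagenase, at 2.09 (60.9 to 153.7 against 706.3 to 1565.4), S100a4 at 1.62, Gsta3 at 1.46, Tgfbi at 1.34 and Ccr3 at 1.21. All 12 arrays entered this ranking, so these values describe likeness on the arrays that defined the split. Larger gaps than those of the 6 genes occurred in probe sets without a gene name here: 1441304_at, with 23625.7 to 43044.3 against 16.7 to 57.2, had a gap of 8.34.

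**Figure D5:**
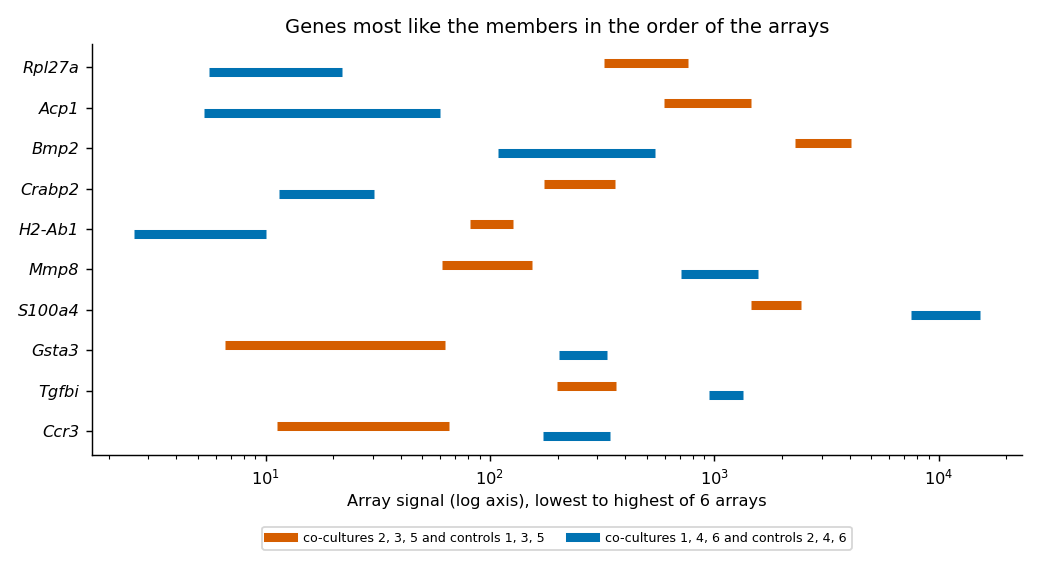
Signal on a log axis of the 10 named genes most like the 6 genes, with a bar from the lowest to the highest of the 6 arrays on which Bcl11a was high and a bar for the other 6. The bars do not overlap for any gene; 5 genes run in the direction of Bcl11a and 5 in that of Cd244a.

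Genes lying next to the 6 in the genome were read on the same arrays. Of the 24 nearest measured neighbours, 2 on each side of each gene, 2 separated the arrays in the direction of Bcl11a and 1 in the other, where 3.59% and 3.00% of all probe sets did; a count this small does not set the neighbours apart from the array. Mettl22 beside Tmem114 (357.1 to 535.2 against 200.3 to 283.2) and Gm5617 beside Zbtb16 (283.1 to 411.2 against 190.5 to 269.0) were higher on the same arrays. Itgax (CD11c), an integrin of dendritic cells and macrophages beside Cox6a2, was lower on them, at 68.0 to 251.2 against 348.1 to 1341.1. Rel and Papolg beside Bcl11a, Ly9 and Slamf7 beside Cd244a, and Ddx28 and Nfatc3 beside Dus2 overlapped between the sets.

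Partners and relatives of each gene were counted from lists. Over the whole array 3.59% of probe sets separated the arrays in the direction of Bcl11a and 3.00% in the other. The counts in each list are small, and nothing is read from them about the lists. The 16 genes set beside Bcl11a were those of the NuRD complex, with which it acts, the related Bcl11b and globin genes it silences. Of these, 0 separated the arrays in the direction of Bcl11a and Rbbp7 did so in the other. In co-culture 5 had the higher mean and 11 the lower. Among 12 corepressor and glucocorticoid-induced genes set beside Zbtb16, the metallothioneins Mt1 (16627.1 to 19617.7 against 9704.5 to 12415.3) and Mt2 (8277.7 to 12139.1 against 4059.8 to 6307.4) were higher on the arrays where Zbtb16 was, while Fkbp5 and Tsc22d3 overlapped. Of 14 measured cytochrome c oxidase subunits, Cox4i1, Cox5a and Cox5b separated in the direction of Cox6a2, but by little: Cox5a gave 21778.1 to 24709.7 against 20674.6 to 21714.2. Cox6a1, the form of the same subunit found outside muscle, overlapped, at 25404.4 to 32818.2 against 23575.6 to 28818.8. None of the 8 skeletal muscle markers separated the arrays, and their summed signal was 718.5 to 931.8 where Cox6a2 was high and 583.6 to 843.3 where it was low.

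The small counts of the next 3 lists are likewise not read as a result, as 3.59% and 3.00% of all probe sets separated the arrays. For Dus2, Adat2 and Eprs, of 17 genes mostly of transfer RNA modification, were higher on the same arrays (190.5 to 229.5 against 138.1 to 173.8 and 3038.9 to 3589.9 against 2043.3 to 2385.0). For Tmem114, Cldn1 of 19 claudin-like and related genes was higher on them, at 57.7 to 104.4 against 4.6 to 56.9, and Emp2 and Emp3 were lower. For Cd244a, Slamf9 and Inpp5d, a phosphatase that SLAM receptors recruit, of 12 SLAM genes and adaptors followed its direction. CD48, its ligand, was 9326.1 to 12399.3 where Cd244a was high and 8213.1 to 9377.2 where it was low, a narrow overlap. In the test between co-culture and control, limma called 0 genes in each of these 6 lists (adjusted p of 1 for every gene). The list genes with the smallest p were Fyn, a kinase downstream of SLAM receptors, with a difference of -0.21 ± 0.10 (SE), and the fetal-type globin gene Hbb-bh1, with -0.57 ± 0.27 (SE) at signals of 7.5 to 56.2. The median differences were -0.02 for the Bcl11a list, 0.02 for Zbtb16, 0.03 for Cox6a2, -0.03 for Dus2, 0.05 for Tmem114 and 0.08 for Cd244a, against 0.02 over all probe sets.

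Markers of other cells were read on the same arrays, which 3.59% of all probe sets separated in the direction of Bcl11a and 3.00% in the other. With so few markers a list, nothing is read from the counts. The summed signal of 12 stromal genes was 36411.2 to 46216.5 on the arrays where Bcl11a was high and 28959.9 to 33968.2 where it was low, although none of the 12 separated the arrays by itself. Bright genes make up most of this linear sum. Col1a2 gave 14396.6 to 20612.1 against 9676.8 to 16116.2 and Cxcl12 2770.1 to 9227.2 against 828.7 to 3368.3. Cd44, at 8460.1 to 14428.2 against 9471.1 to 13589.0, and Pdgfra, at 406.9 to 1464.4 against 447.8 to 1162.3, showed no such shift. Of 13 macrophage and leukocyte genes, Adgre1 (F4/80; 8833.4 to 12218.2 against 13941.4 to 16686.2) and Itgam (CD11b; 269.4 to 496.0 against 760.0 to 1745.6) were lower where Bcl11a was high and higher where Cd244a was, while other macrophage genes leaned the other way with overlap: Csf1r gave 30953.8 to 39488.9 against 22597.7 to 31022.3, and Fcgr1 2214.1 to 3023.7 against 1617.9 to 2221.1. The ranges of Cd14, Lyz2 and C1qc also reached higher where Bcl11a was high and overlapped more. The summed signal of the 13 genes overlapped, at 258310.5 to 314299.8 against 228034.4 to 270287.7. Of 7 HSC and progenitor genes, Gata2 went with Bcl11a and Procr with Cd244a. None of the 7 natural killer, T and B cell genes, 6 mast cell genes, 5 endothelial genes or 4 erythroid genes separated the arrays. The brightest signal of an array was 48200.3 to 66711.6 on the arrays where Bcl11a was high and 41549.4 to 52441.7 where it was low. The part of these cell types, and of the scale of an array, in the split was not tested.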

How the data were processed

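Arrays of 6 co-cultures and 6 MSC-only cultures were used, 1 per culture. The authors used the GeneChip Operating Software to make the deposited signal of each probe set, which is linear and not log-transformed. Its 2% trimmed mean was 496.6 to 497.3 on every array, so arrays had been scaled to a common mean, which leaves differences in the spread of signals. Arrays have no sequencing depth, so precision is set by their number.

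Values were analysed as log2(signal + 16). The platform annotation gave 1 symbol for 34945 of the 45037 probe sets, several for 932 and none here for 9160. The probe set with the highest mean stood for a gene unless another is named. Groups came from the sample labels and were compared over all probe sets with limma 3.58.1 in R 4.3.3, without a block or filter, with Benjamini-Hochberg adjustment at 0.05, and single values by exact permutation. The rule for named genes took the 6, the 5 most alike in each direction, their 2 nearest measured neighbours on each side, sex-linked genes and, in each list, the 3 smallest p and the 2 brightest. Genes outside it, chosen after their values were seen, are list genes that separated the arrays, genes near the gap of 1.5, Fkbp5, Alox8, Taf7l, Ptprc and named stromal and macrophage markers. The members and lists were chosen with earlier results of these data known, so they are no independent evidence. Arrays were never tested against each other by their order. Alternatives covered the added constant, the scaling, dim probe sets, the choice of probe set, the replicate block, limma's options, the methods' t-test and leaving out arrays.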

Additional observations from a re-analysis of the deposited data

How the results depend on the processing

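Limma called 2 probe sets between co-culture and control, 1 with a constant of 1, 1 after quantile normalization, 1 after median centring, 1 by the methods' t-test, and 0 with a constant of 64, without dim probe sets, with limma's trend and robust options or with the replicate block; it called 8 without the arrays numbered 3 and 4 (chosen after seeing the data) and 0 to 4 with single arrays left out. None of these settings called a probe set of the 6 genes. Their wide gap, with 3 arrays of each group on either side, gave them a large spread within groups. Without the arrays numbered 3 and 4, high Xist went with co-culture, so culture and sex of the RNA cannot be told apart there. With all arrays, Xist was high on every co-culture but only on controls 3 and 4, so culture and sex were partly confounded. The deviations of same-numbered samples correlated at -0.16 and -0.13 for numbers 1 and 2 and at 0.10 to 0.15 for numbers 3 to 6. Numbers 1 and 2 had their co-culture and control on opposite sides of the split, and numbers 3 to 6 on the same side. Of 6 co-cultures, 1 correlated best with its own number, so the numbers were not taken to pair the samples. Y-linked signal did follow the number: Eif2s3y was 13.6 at most on the arrays numbered 3 and 4 of both groups and at least 1021.6 on the rest. Whether the numbers mark a shared source was not tested. The blocked fit cannot change a mean difference, since each number has 1 co-culture and 1 control. The 6 differences stayed at 0.03, 0.0037, -0.02, 0.03, 0.38 and 0.13 for Bcl11a, Tmem114, Cd244a, Cox6a2, Dus2 and Zbtb16. Of 142 alternative values of these differences, 42 had the other sign and 0 were called. The 142 include values from the blocked fits, limma's options and the t-test, which cannot change a difference. With a constant of 64 the differences changed sign for Bcl11a, at -0.0141. After quantile normalization they did for Bcl11a, at -0.0240, and Tmem114, at -0.0572; after median centring for Bcl11a, at -0.0125, Tmem114, at -0.0363, and Cox6a2, at -0.0085; with a constant of 1 for Tmem114, at -0.0376; without arrays 3 and 4 for Cd244a, at 0.0338. With another probe set of the gene they did for Bcl11a (1447334_at), at -0.37, Cox6a2 (1457633_x_at), at -0.10, and Zbtb16 (1427638_at), at -0.16. With each array left out in turn, the difference ranged from -0.42 to 0.50 for Bcl11a, -0.42 to 0.36 for Tmem114, -0.25 to 0.25 for Cd244a, -0.31 to 0.33 for Cox6a2, -0.10 to 0.69 for Dus2 and -0.15 to 0.41 for Zbtb16. Leaving out 1 array must shift the mean of a group with 3 high and 3 low arrays, so these signs are not read. The cause of the other sign changes was not tested. The gap of 1.5 was passed by 7 probe sets of the 6 genes. Leaving out any array could only keep or widen these gaps, and 7 passed. The threshold was passed by 5 after quantile normalization, 5 after median centring and 4 with a constant of 64, a larger constant making every log difference smaller. Dus2 fell below it under all 3 (1.48, 1.48 and 1.31), as did Zbtb16 (1.46, 1.46 and 1.15), and Cd244a under the last (1.39). The filter on dim probe sets left out Bcl11a, whose low arrays lie near the bottom of the scale.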
